A study of Homo sapiens with 2 samples.

Results

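The S100 genes encode a vertebrate family of small calcium-binding proteins, most of them in a cluster on the long arm of chromosome 1. The 10 genes described here are S100A2, S100A4, S100A6, S100A7, S100A8, S100A9, S100A10, S100A11, S100A14 and S100A16, chosen as the rows whose Ensembl identifier carries one of these symbols in GENCODE release 44. All 10 were found, among 58735 genes in each of 2 count tables. Both tables were made from the polyA RNA of one cell line, MCF10a-Snail-ER, a human mammary epithelial line derived from MCF10a that stably carries the transcription factor Snail fused to the estrogen receptor. In both libraries the cells had received 100 nM tamoxifen for 1 day, which activates the fusion protein and starts an epithelial-to-mesenchymal transition. One library was read as native RNA strands on an Oxford Nanopore MinION (direct RNA kit), the other as short reads of amplified cDNA on an Illumina instrument (TruSeq stranded mRNA kit). Each platform has 1 library, and untreated cells were not part of these tables, so the values below compare 2 libraries of one line under one treatment and say nothing of the response to Snail. Whether both were made from the same culture or RNA is not given in the sources used here, and the column names of the 2 tables carry different tags that no label explains.

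An S100 protein usually works as a dimer of short chains, each with a pair of EF-hands, the helix-loop-helix fold that holds a calcium ion. The loop nearer the N-terminus is of a form particular to the family, and the loop nearer the C-terminus is of the classical form. Calcium opens a surface that grips other proteins, among them annexins and myosin, and some members are released from cells and bind receptors such as RAGE and TLR4. In squamous and mammary epithelia several members are abundant, and others are known from neutrophils or from motile, mesenchymal cells.

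The loop nearer the C-terminus was located in each of these genes. The 36 reference bases that encode its 12 residues are given here, read 5′ to 3′ in the direction of transcription. They come from hg38 with the canonical transcripts of GENCODE 44. Capitals mark the codons of loop positions 1, 3, 5 and 12, whose side chains hold the calcium ion in the classical form.
S100A2 (chr1:153561511-153561546, minus strand): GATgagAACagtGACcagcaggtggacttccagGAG
S100A4 (chr1:153543843-153543878, minus strand): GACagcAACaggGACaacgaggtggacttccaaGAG
S100A6 (chr1:153534753-153534788, minus strand): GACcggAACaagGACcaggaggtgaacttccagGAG
S100A7 (chr1:153457890-153457925, minus strand): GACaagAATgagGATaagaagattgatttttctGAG
S100A8 (chr1:153390175-153390210, minus strand): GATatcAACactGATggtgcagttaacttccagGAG
S100A9 (chr1:153360692-153360727, plus strand): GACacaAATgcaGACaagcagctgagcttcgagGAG
S100A10 (chr1:151983244-151983279, minus strand): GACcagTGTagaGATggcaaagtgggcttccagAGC
S100A11 (chr1:152032743-152032778, minus strand): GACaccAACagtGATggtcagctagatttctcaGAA
S100A14 (chr1:153614951-153614986, minus strand): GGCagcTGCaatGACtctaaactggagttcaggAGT
S100A16 (chr1:153607612-153607647, minus strand): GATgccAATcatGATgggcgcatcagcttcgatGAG

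In each of the genes other than S100A10 and S100A14, the translated loop matched the PROSITE EF-hand motif once and carried acidic residues at 3 of the 4 marked positions. The loops of S100A10 and S100A14 did not match it, and were located by alignment to S100A6. S100A10 kept 2 acidic residues of 4 and S100A14 kept 1. The proteins ranged from 90 residues (S100A6) to 114 residues (S100A9). Over the whole coding sequence the 45 pairs of genes were 43.4 to 69.3% identical, with a median of 50.8%. The closest pair was S100A2 and S100A4, and S100A4 and S100A6 followed at 62.3%. No stretch of 50 bases in the transcripts of 8 members occurs in another annotated gene. The exceptions were S100A7, which shares 15.8% of such words with S100A7A, and S100A11, which shares 2.00% with ENSG00000228974. No member has a copy on the 12 alternate contigs of chromosome 1.

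The depths were 403235 counts (Nanopore) and 191741714 counts (Illumina), so that 1 count was worth 2.48 and 0.00522 counts per 1000000 (CPM). A floor of 3 counts, taken as the limit that a count of 0 allows, stood for 7.44 and 0.0156 CPM. The markers of mammary basal epithelium were detected in both libraries for 8 of 8 genes and summed to 3712 CPM (Nanopore) and 3988 CPM (Illumina). The myeloid and neutrophil markers summed to 12.4 and 11.9 CPM, nearly all of it CD14. Fibroblast markers summed to 27.3 and 33.8 CPM and endothelial markers to 2.48 and 6.61 CPM. The luminal markers summed to 1647 and 688 CPM, of which 965 and 143 CPM were ESR1. Its sequence is also part of the Snail fusion, and the source of the ESR1 counts was not tested. KRT8 was at 389 and 209 CPM and KRT18 at 280 and 322 CPM. The other luminal markers were low, GATA3 at 9.92 and 12.9 CPM and KRT19 at 2.48 and 0.459 CPM, and ELF5 had 0 counts in both libraries. In RNA from a whole culture, a lower level in every cell and a smaller share of expressing cells cannot be told apart.

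The 10 genes together held 4488 Nanopore counts, 1.11% of that library (95% Wilson interval 1.08 to 1.15%), and 2322256 Illumina counts, 1.21% (1.21 to 1.21%). All intervals here cover counting error only, since there are no replicates. The counts were concentrated in few members. S100A2 alone held 53.8% of the members' Nanopore counts (52.3 to 55.3%) and 63.5% of their Illumina counts (63.4 to 63.5%), and S100A6 held 22.2% and 14.8%. The Illumina shares are of counts not divided by length, and levels per length are given below. The levels spanned from the 8th most counted gene of the Nanopore library, S100A2, to S100A7, which had no Nanopore count.

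**Figure D1:**
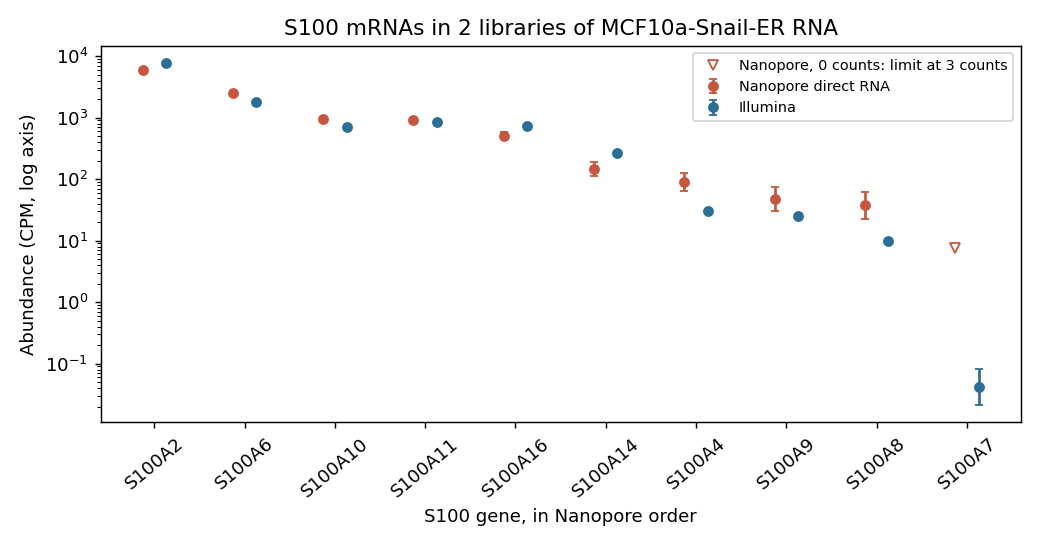
Abundance of the 10 S100 genes in CPM on a log axis, by Nanopore direct RNA and by Illumina, with 95% Wilson intervals (smaller than the symbol for most Illumina points). S100A2 stood at 5989 CPM by Nanopore and 7687 CPM by Illumina, and S100A7 had 0 Nanopore counts, so its open triangle marks the limit of 7.44 CPM that 3 counts stand for.

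S100A2, typical of basal epithelial cells, was the most abundant member. It had 2415 Nanopore counts, 5989 CPM (95% Wilson interval 5756 to 6232), and 1473852 Illumina counts, 7687 CPM (7674 to 7699), where it ranked 4th of all genes. It was lower by Nanopore, with a log2 ratio of −0.36, where the ratio is Nanopore over Illumina CPM after adding 1 CPM to each. The counting interval of that ratio, taken without the added 1, was −0.42 to −0.30, and the adjusted p-value was 5.65e-36. This p-value comes from an exact binomial test of the 2 counts, adjusted by Benjamini-Hochberg over the 12414 genes that averaged 5 CPM or more. It bears on these 2 libraries and not on the platforms as such. The gene lies at 153561108 to 153567890 of chromosome 1 (hg38) and overlaps no other annotated gene. By the Euclidean distance of log2 CPM in the 2 libraries, the 3 protein-coding genes most like S100A2 in level were MT-CO2, MT-ND4 and MT-CO3, at distances of 0.59, 0.63 and 0.77.

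S100A6, or calcyclin, is made by proliferating epithelial and mesenchymal cells. It came next, with 997 Nanopore counts, 2473 CPM (2324 to 2631), and 343472 Illumina counts, 1791 CPM (1785 to 1797). Unlike S100A2 it was higher by Nanopore, with a log2 ratio of 0.46 (0.37 to 0.55; exact binomial adjusted p = 8.19e-21, Benjamini-Hochberg), a direction that turned to −0.76 to −1.37 when Illumina counts were divided by transcript or gene length. The 3 protein-coding genes nearest to S100A6 in level were RPS14, RPS6 and RPL10, at distances of 0.23 to 0.24.

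S100A10 and S100A11 are partners of annexins. S100A10 forms a complex with annexin A2 at the plasma membrane, where it takes part in the binding of plasminogen, and does so without needing calcium. It had 379 Nanopore counts, 940 CPM (850 to 1039), and 135864 Illumina counts, 709 CPM (705 to 712). Its log2 ratio was 0.41 (0.26 to 0.55; exact binomial adjusted p = 9.66e-07, Benjamini-Hochberg), and it too turned negative under division by length, to between −0.77 and −1.01. S100A11, which binds annexin A1, had 364 Nanopore counts, 903 CPM (815 to 1000), and 164857 Illumina counts, 860 CPM (856 to 864). It was the only tested member whose libraries did not differ past the threshold on CPM, with a log2 ratio of 0.07 (−0.08 to 0.22; exact binomial adjusted p = 0.491, Benjamini-Hochberg). That call rested on the scaling: with median-ratio scaling the ratio was 0.20 and the exact binomial adjusted p-value 0.0281 (Benjamini-Hochberg), and with division by length it was −1.03 to −1.99.

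S100A14 and S100A16, neighbours on the chromosome that are expressed in many epithelia, were the members with the lowest Nanopore/Illumina ratios on CPM. S100A16 had 205 Nanopore counts, 508 CPM (443 to 583), and 140838 Illumina counts, 735 CPM (731 to 738). S100A14 had 58 Nanopore counts, 144 CPM (111 to 186), and 50987 Illumina counts, 266 CPM (264 to 268). Their log2 ratios were −0.53 (−0.74 to −0.33) and −0.88 (−1.28 to −0.52), with exact binomial adjusted p-values of 1.63e-07 and 1.58e-06 (Benjamini-Hochberg). Of the 10 members these 2 and S100A2 have the longest exonic sequence, 1701 bases for S100A16, 1277 for S100A14 and 1546 for S100A2, against 486 to 1012 for the other 7. The 3 were also the only tested members below 0 on CPM. That is a description of 9 genes, and the part of length in it was not tested.

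S100A4, also called metastasin, binds non-muscle myosin and is widely used as a marker of mesenchymal and motile cells. It was a minor transcript here, with 36 Nanopore counts, 89.3 CPM (64.5 to 124), and 5755 Illumina counts, 30.01 CPM (29.2 to 30.8). The level was thus 2.91-fold higher by Nanopore, a log2 ratio of 1.54 (1.06 to 2.04; exact binomial adjusted p = 2.71e-07, Benjamini-Hochberg). After division of the Illumina counts by length the ratio was 0.05 (union exonic length), 0.51 (mean transcript length) or −0.02 (canonical transcript length), and none passed the threshold.

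S100A8 and S100A9 form calprotectin, a heterodimer that binds zinc, manganese and calcium and that is stored in neutrophils and induced in stressed keratinocytes. S100A9 had 19 Nanopore counts, 47.1 CPM (30.2 to 73.6), and 4732 Illumina counts, 24.7 CPM (23.99 to 25.4). S100A8 had 15 Nanopore counts, 37.2 CPM (22.5 to 61.4), and 1891 Illumina counts, 9.86 CPM (9.43 to 10.3). Both were higher by Nanopore, S100A9 with a log2 ratio of 0.91 (0.20 to 1.58; exact binomial adjusted p = 0.0313, Benjamini-Hochberg) and S100A8 with 1.81 (1.08 to 2.64). S100A8 had an adjusted p-value of 0.000159 (exact binomial, Benjamini-Hochberg). Neither excess held under division by length, where S100A9 lay between −0.13 and −1.29 and S100A8 between −0.01 and 0.74, with no adjusted p-value of S100A8 past the threshold. S100A12, the third S100 gene typical of neutrophils, had 0 counts in both libraries, as did CSF3R and FCGR3B, and PTPRC had 0 Nanopore and 2 Illumina counts. Of the other myeloid and neutrophil markers, CD14 had 5 Nanopore and 2100 Illumina counts and MPO had 0 and 176. LYZ and ITGAM had 0 Nanopore and 4 Illumina counts each.

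S100A7, or psoriasin, is a product of differentiating and inflamed keratinocytes. It had 0 Nanopore counts, which allows up to 7.44 CPM at 3 counts, and 8 Illumina counts, 0.0417 CPM (0.0211 to 0.0823). Its Illumina level lay below what the Nanopore depth can show, and a difference between the libraries could not be detected. It was the 1 member that did not pass the filter of 5 CPM.

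With a call defined as at least 2-fold and an exact binomial adjusted p-value under 0.05 (Benjamini-Hochberg), 2 of the 9 members tested, S100A4 and S100A8, were higher by Nanopore, where 17.7% of all 12414 tested genes were. None of the 9 was called higher by Illumina, where 21.7% of tested genes were. By the adjusted p-value alone, 5 members were higher by Nanopore (20.2% of tested genes) and 3 were higher by Illumina (27.2%). The test passes smaller ratios at higher counts, as with −0.36 for S100A2 on 2415 Nanopore counts. A trait of the members therefore cannot be told apart from abundance in these calls. At 4-fold, 0 members were called in either direction, against 12.9% of tested genes higher by Nanopore and 7.31% higher by Illumina. The share of members called higher by Nanopore at 2-fold, 2 of 9, was thus near the background. That background includes genes that overlap another gene, some of which are described below. With median-ratio scaling or protein-coding totals S100A9 passed 2-fold as well (1.03 and 1.11), which made 3 of 9. The ratios of the 9 members ran from −0.88 to 1.81, where the quartiles of all tested genes were −1.18 and 0.54. S100A4, S100A8 and S100A9 lay above the upper quartile, and no member lay below the lower one.

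**Figure D2:**
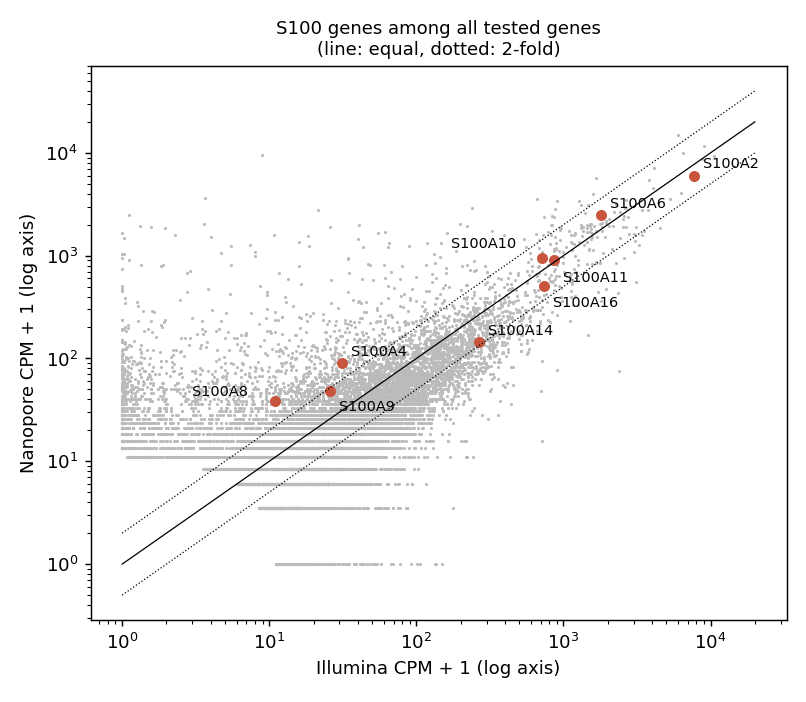
Nanopore against Illumina CPM plus 1 on log axes, for the 12414 tested genes (grey) and the 9 tested S100 genes (red), with the line of equality and dotted lines at 2-fold. Only S100A4 and S100A8 lie above the upper dotted line, and no S100 gene lies below the lower one.

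The median log2 ratio of the 9 members was 0.41, and 6 of them were above 0. Over all tested genes the median was −0.42 and 36.8% were above 0. Over the 2810 tested genes that overlap no other gene, the median was −0.66 and 24.0% were above 0. The 9 tested members are among the shortest 20% of tested genes by union exonic length (up to 2238 bases), 2470 genes whose median was 1.21. The 426 protein-coding genes among these that overlap no other gene had a median of 0.01 (quartiles −0.42 and 0.68), and the 6 tested members that overlap no other gene had a median of 0.02. These 6 members were thus near other short protein-coding genes on this scale, a comparison without a test.

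Dividing the Illumina counts by length (transcripts per 1000000, TPM) moved the members to the other side. An Illumina library samples fragments, so a longer mRNA yields more counts, whereas a Nanopore read is 1 RNA strand whatever its length. With union exonic length, the sum of all annotated exons, the median of the 9 tested members was −1.17 while that of all tested genes was 0.40. With the mean length of the annotated transcripts these medians were −0.77 and 0.06, and with the canonical transcript −0.93 and 0.49. The short protein-coding genes that overlap no other gene stood between, at −0.69, −0.30 and −0.42.

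The number of members at least 2-fold higher by Illumina with an exact binomial adjusted p-value under 0.05 (Benjamini-Hochberg) became 7, 3 or 4 of 9 by union, mean transcript or canonical length, where 9.62%, 12% and 7.74% of tested genes were called. None was called higher by Nanopore on any of the 3, where 28.5%, 21.6% and 29.9% of tested genes were. The shares are over tested genes of all lengths and levels, so a trait of the members cannot be told apart from length or abundance. S100A2 had ratios of −1.17, −1.25 and −1.03 on these scales, and S100A14 had −1.96, −1.32 and −1.44. Fragment length is not given in the sources used here, so an effective length, which matters most for mRNAs this short, could not be computed.

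**Figure D3:**
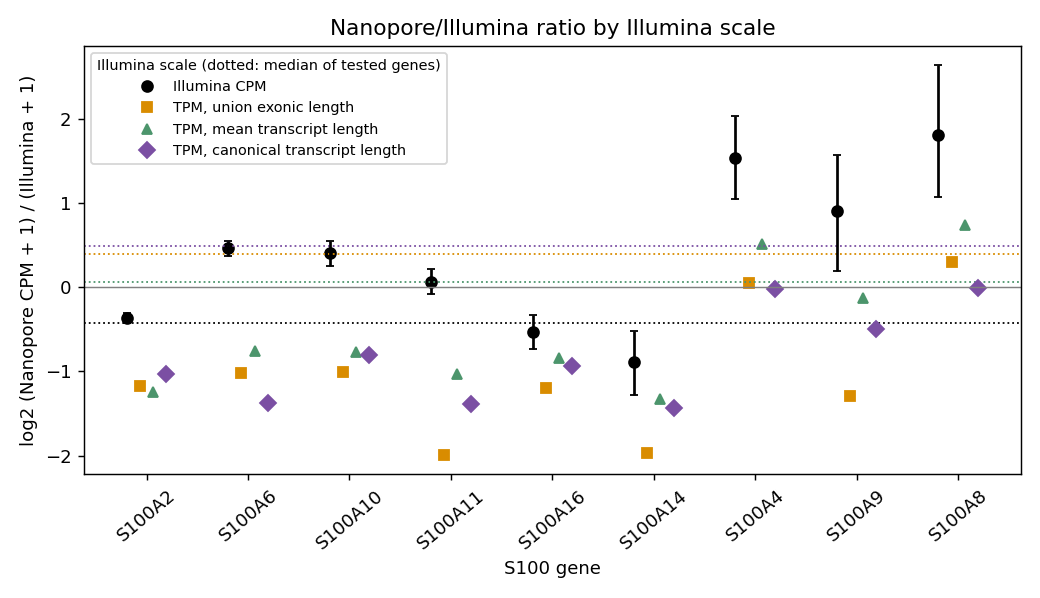
Log2 ratio of Nanopore CPM plus 1 to Illumina abundance plus 1 for the 9 tested S100 genes, with Illumina in CPM (black, with 95% counting intervals) or in TPM by 3 definitions of length. Dotted lines give the median of all tested genes on the scale of the same colour, and under each TPM scale most S100 genes lie below 0 and below that median.

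The order of the members was compared with Nanopore CPM (1 read per strand) and Illumina TPM. The Nanopore counts of S100A6 and S100A11 cannot be split from those of opposite-strand genes (described below). How that bears on their places was not tested. By Nanopore the order ran S100A2, S100A6, S100A10, S100A11, S100A16, S100A14, S100A4, S100A9, S100A8 and S100A7. The Nanopore intervals of S100A10 and S100A11, of S100A14 and S100A4, of S100A4 and S100A9, and of S100A9 and S100A8 overlapped. The ratio of the 2 counts was therefore given an exact 95% interval, which covers counting error only. It included 1 for S100A10 over S100A11 (1.04, 0.899 to 1.21) and S100A9 over S100A8 (1.27, 0.610 to 2.68), whose order is not resolved at this depth. For S100A14 over S100A4 (1.61, 1.05 to 2.51) and S100A4 over S100A9 (1.89, 1.06 to 3.50) it lay just above 1. By Illumina TPM over union exonic length the first were S100A2 (13466 TPM) and S100A6 (4996 TPM). S100A11 (3588 TPM) stood above S100A10 (1896 TPM), followed by S100A16 (1170 TPM) and S100A14 (564 TPM). S100A9 (117 TPM) then came above S100A4 (85.9 TPM), S100A8 (29.98 TPM) and S100A7 (0.233 TPM). With mean or canonical transcript length S100A4 and S100A9 changed places, and the order then differed from the Nanopore order only in S100A10 and S100A11.

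Ratios of levels within a library were compared for 6 pairs, all but S100A8 and S100A9 chosen after the values were seen. The limit on the Nanopore counts of S100A6 and S100A11 holds for their pairs too. The proteins of 4 pairs bind each other, S100A2 and S100A6 are the most abundant members, and S100A3 lies inside S100A4. For S100A10 and ANXA2 the Nanopore ratio was 0.585 (95% exact interval 0.514 to 0.665; 379 and 648 counts). The Illumina TPM ratio was 0.570 by mean transcript length and 0.540 by canonical length, both inside that interval, but 2.67 by union exonic length, which is 11574 bases for ANXA2. For S100A11 and ANXA1 the Nanopore ratio was 3.19 (2.58 to 3.98), and the Illumina TPM ratios were 3.48, 4.42 and 12.2 in the same order of lengths. S100A8 and S100A9 gave 0.789 by Nanopore (0.373 to 1.64) and 0.424, 0.561 and 0.257 by Illumina TPM. S100A2 was 2.42 times S100A6 by Nanopore (2.25 to 2.61) and 3.40, 1.91 and 2.70 times by Illumina TPM. S100A4 stood at 0.514 of the level of MYH9, the heavy chain of the myosin it binds, by Nanopore (0.334 to 0.779; 36 and 70 counts), and at 0.231, 0.899 and 1.11 by Illumina TPM. S100A4 was 4.5 times S100A3 by Nanopore (2.06 to 11.2; 36 and 8 counts) and 1.53, 1.94 and 1.20 times by Illumina TPM. In each of the 6 pairs the union exonic length gave a value outside the Nanopore interval. All 3 lengths did so for S100A2 and S100A6 and for both pairs with S100A4.

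**Figure D4:**
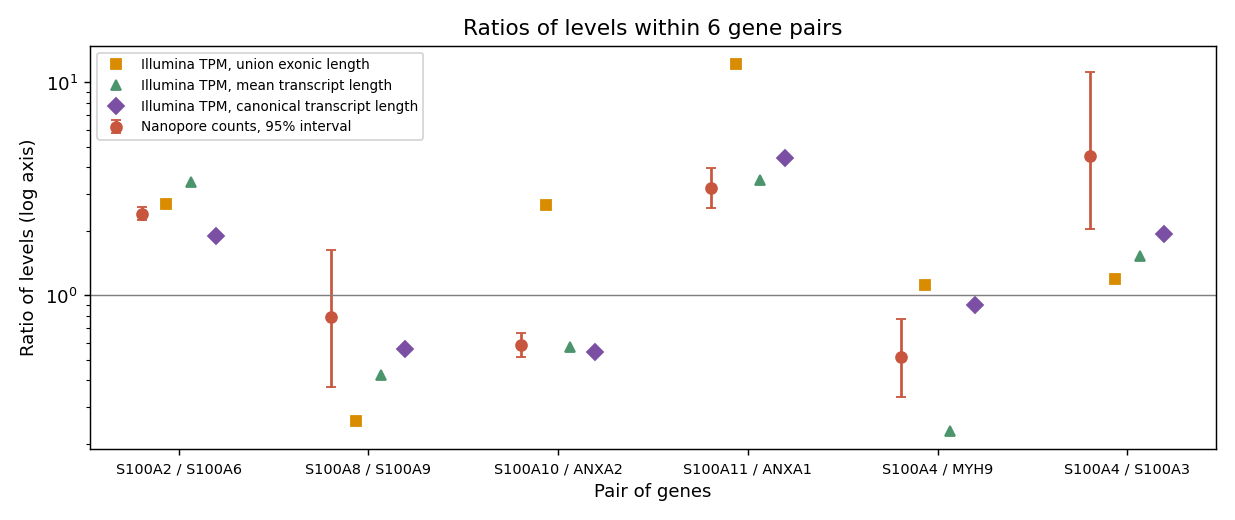
Ratio of the levels of 2 genes within a library, on a log axis, for 6 pairs: Nanopore counts with 95% exact intervals, and Illumina TPM by 3 definitions of length. For S100A10 / ANXA2 the Illumina values of 0.570 and 0.540 lie inside the Nanopore interval and the value by union exonic length, 2.67, lies far above it, whereas for both pairs with S100A4 all 3 Illumina values lie outside the interval.

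Of the 10 members, 3 overlap the body of another annotated gene with at least 10 counts, and for 2 of these the neighbouring gene had nearly the same count by Nanopore and almost none by Illumina. S100A6 shares 531 bases with ENSG00000238279, a long non-coding RNA gene on the opposite strand (chromosome 1, 153533430 to 153535129). S100A6 had 997 Nanopore counts and that gene 996, whereas by Illumina they had 343472 and 21. S100A11 overlaps ENSG00000229021, a long non-coding RNA gene on the opposite strand (151994531 to 152042774). Here the Nanopore counts were 364 and 364, and the Illumina counts 164857 and 23. By Nanopore both non-coding genes would rank beside their S100 neighbour, at 2470 and 903 CPM, and by Illumina they stood at 0.110 and 0.120 CPM, log2 ratios of 11.12 and 9.66.

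In the annotation used here the canonical transcripts of these S100 genes share no exonic base with the non-coding genes (37 bases of another annotated exon of S100A6 do). They lie inside the body: 563 of the 563 bases of the canonical S100A11 transcript and 232 of the 434 bases of canonical S100A6, the last exon, fall in introns of the opposite gene. S100A4 contains S100A3 in an intron on the same strand, and none of its exonic bases fall inside the body of S100A3. These 2 did not have equal Nanopore counts, 36 and 8, against 5755 and 4281 by Illumina. S100A13, not one of the 10, overlaps S100A1 on the opposite strand, but its canonical transcript has 0 of 477 bases inside the body of S100A1, and the Nanopore counts were 110 and 1. It also overlaps ENSG00000271853, a long non-coding RNA gene on the same strand, with 225 canonical bases inside exons of that gene. Here the Nanopore counts were nearly equal, 110 and 124, and the Illumina counts were 60951 and 34487. How reads over several genes were assigned is not given in the sources used here, nor is the annotation release, and its part in these counts was not tested. The Nanopore counts of S100A6 and S100A11 cannot be split from those of the opposite strand with these tables, nor those of S100A13 from ENSG00000271853.

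**Figure D5:**
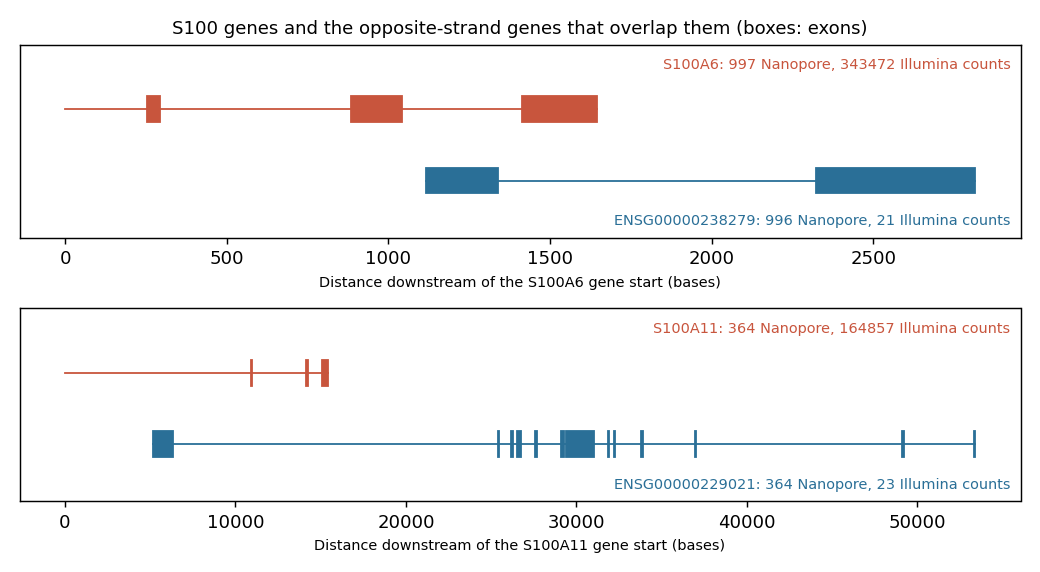
Canonical exons of S100A6 (top) and S100A11 (bottom) in red and exons of the opposite-strand gene in blue, by distance in bases downstream of the start of the S100 gene, lines marking gene bodies. The Nanopore counts of each couple are 997 and 996, and 364 and 364, although no canonical exons overlap.

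The rest of the family and its surroundings were read from lists of genes. Of 11 other S100 genes, 4 had at least 1 count by Nanopore, S100A1 a single one, and 5 by Illumina, and 6 had 0 counts in both libraries, S100B, S100G, S100Z, S100A12, S100A7A and S100A7L2. S100A13, which takes part in the export of growth factors without a signal peptide, was the most abundant of them, with 110 Nanopore counts, 273 CPM, and 318 CPM by Illumina. S100A3 was at 19.8 and 22.3 CPM, and S100P at 9.92 and 2.97 CPM on 4 Nanopore counts. None of the 3 that were tested passed the threshold of the exact binomial test on CPM. With TPM by union exonic length S100A3 was called higher by Illumina, where 9.62% of all tested genes were. By canonical length S100A3 and S100A13 were, where 7.74% of tested genes were. By mean transcript length 0 of the 3 were, where 12% of tested genes were. The 7 fused-type S100 genes, which encode filaggrin and other proteins of cornified skin and lie beside the S100 genes on chromosome 1, had 0 Nanopore counts and 376 Illumina counts in all, 304 of them from TCHH.

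Of 12 partners and receptors, 9 were tested, and 3 were at least 2-fold higher by Illumina with an exact binomial adjusted p-value under 0.05 (Benjamini-Hochberg), AHNAK, MYH9 and ANXA6, and 0 were higher by Nanopore, where 21.7% and 17.7% of all tested genes were. The median log2 ratio of the 9 was −0.78, against −0.42 for all tested genes, and this direction turned with TPM by union exonic or canonical length, to 0.52 and 0.64, with 3 genes called higher by Nanopore and 0 by Illumina on each, beside a background of 28.5% and 29.9% called higher by Nanopore. It was −0.63 by mean transcript length, with 1 gene called higher by Nanopore (background 21.6%) and 2 by Illumina (12%). ANXA2 was the most abundant partner, at 1607 CPM by Nanopore and 3038 CPM by Illumina, and ANXA1 was at 283 and 484 CPM. BSG, which encodes basigin, a receptor for S100A9, was at 305 and 473 CPM. The other 3 receptors on the list were far lower. AGER, which encodes RAGE, had 0 Nanopore and 855 Illumina counts, 4.46 CPM, TLR4 had 1 and 902 counts, and CD36 had 1 and 98. CACYBP, named for its binding to S100A6, was at 218 and 258 CPM (exact binomial adjusted p = 0.20, Benjamini-Hochberg).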

How the data were processed

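Per the labels' protocols, polyadenylated RNA of 1 culture condition gave 1 Nanopore and 1 Illumina library. The authors deposited raw counts per Ensembl gene. The submitters' processing notes name minimap2 2.11-r797, HISAT2 2.1.0, featureCounts and hg38, without roles; options and annotation are not given in the sources used here. Names, positions and lengths came from GENCODE 44 on hg38, which matched 58207 of 58735 identifiers.

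Counts were divided by library totals (CPM). Log2 ratios used CPM plus 1. There are no replicates. Genes averaging 5 CPM or more therefore had a two-sided binomial test of their counts, exact and conditional on the sum (SciPy 1.17.1), with Benjamini-Hochberg adjustment over all of them. The test was first tried on counts simulated from Illumina proportions as Poisson draws, the model that it assumes. That trial does not bear on amplification or on differences between platforms. Intervals are 95%, Wilson for CPM and shares and Clopper-Pearson for ratios. They cover counting error only, since each platform has 1 library. Amplified reads are not separate molecules, so the Illumina intervals are for reads and not for molecules. TMM factors came from edgeR 4.0.16. Calcium loops were found by translating canonical coding sequences.

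Named genes were the members, 3 lists, marker genes, overlapping genes with at least 10 counts and the 3 nearest protein-coding genes of the 2 most abundant members. Pairs of genes other than S100A8 and S100A9 were added later. Members and lists were chosen with earlier results of these data known. Protein sequences were not used here, and coding-sequence identity was given in place of the planned protein identity. One gene of the list of partners and receptors is not reported here and was left out of that list's counts.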

Additional observations from a re-analysis of the deposited data

How the results depend on the processing

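Without length, the other scalings and pseudocounts kept every member's direction, and 4-fold in place of 2-fold left 0 members higher by Nanopore. Median-ratio scaling and protein-coding totals brought S100A11 past the threshold (0.20 and 0.28) and S100A9 past 2-fold (1.03 and 1.11), for 3 members higher by Nanopore. The members' median was 0.62 with protein-coding totals. Keeping only genes that overlap no other gene, with totals over those genes, left out S100A4, S100A6 and S100A11. The median of the 6 tested members that remained was 0.086, against −0.56 for all 3460 tested genes in that setting. Of these 6 members, 1 was called at least 2-fold higher by Nanopore. On CPM over all genes, by the adjusted p-value alone, 5 members were higher by Nanopore (20.2% of tested genes) and 3 by Illumina (27.2%). The median over all tested genes moved from −0.42 to −0.32 (TMM), −0.28 (median ratio), −0.20 (protein-coding totals) and, with TPM, 0.40, 0.06 and 0.49.

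Illumina TPM by union exonic length gave S100A11 −1.99, S100A9 −1.29, S100A10 −1.01 and S100A6 −1.01, a members' median of −1.17, and 0 members called higher by Nanopore and 7 by Illumina. Mean transcript length gave −1.03, −0.13, −0.77 and −0.76 for these genes, a median of −0.77, and 0 and 3 calls. Canonical length gave −1.39, −0.49, −0.80 and −1.37, with S100A8 at −0.0099 and S100A4 at −0.022, a median of −0.93, and 0 and 4 calls. The cause was not tested. The members' share was 1.34% by Nanopore and 1.27% by Illumina of protein-coding counts, the reverse of the order over all counts (1.11% and 1.21%). Without mitochondrial genes the share was 1.24% and 1.28%. In Illumina TPM it was 2.59%, 2.33% and 2.42%. The order by Illumina had 2 members at another rank with mean transcript length and 2 with canonical length.

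Testing with no filter on low counts, or above 20 CPM, left both counts of called members as they were. At the Nanopore depth, 15 to 58 counts limit S100A4, S100A8, S100A9 and S100A14. No paired analysis was possible because each group holds 1 library.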
